A study of Arabidopsis thaliana with 6 samples.

Results

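CHH methylation was compared across the genome between plants that carried NRPD1 without its DeCL domain and plants that carried no functional NRPD1, to find where the truncated protein raised it. CHH methylation is methylation of cytosines that are followed by 2 bases other than G. The comparison used 4 of the 6 bisulfite sequencing libraries of the series, 2 from nrpd1-3 and 2 from nrpd1dDeCL. The genome was divided into 300 bp windows from the first base of each chromosome, without overlap. Testing needed 10 or more CHH cytosines of the window in each of the 4 libraries, which held for 285292 of 397157 windows. The level of a window was the number of methylated reads divided by all reads at its cytosines, in percent. A window was called gained when nrpd1dDeCL was at least 10 points above nrpd1-3, with the reads of each group pooled, at an adjusted p of 0.01 or less in logistic regression of reads on group. A lost window met the same limits in the other direction. There were 4212 gained windows and 26 lost windows. The full-length line took no part in these calls, and its values are given beside the others.

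All plants were Arabidopsis thaliana of ecotype Col-0 and shared the nrpd1-3 mutant background, a T-DNA insertion that disrupts NRPD1 and that the transgenic plants carried too. The nrpd1-3 group had no transgene. The nrpd1dDeCL group carried an NRPD1 transgene under the native NRPD1 promoter, from which the DeCL domain was deleted and to which a FLAG tag was added at the C terminus, called NRPD1ΔCTD in the study. The third group carried full-length NRPD1. DNA was taken from above-ground tissue of plants 2.5 weeks old, grown in days of 16 h light and 8 h dark, and transgenic lines were selected with the herbicide Basta. The labels name the transgene of the full-length group NRPD1FL, whereas the sample titles name NRPE1, and the transgene label was followed. The study calls the 2 samples of a group independent biological replicates, and how many independent transformants they represent is not given in the sources used here. No wild-type library was analysed here.

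NRPD1 is the catalytic subunit of Pol IV, an RNA polymerase of plants that transcribes transposons and other repeats and works with the RNA-dependent RNA polymerase RDR2. The double-stranded products are cut into short interfering RNAs, and these guide the methyltransferase DRM2 to matching DNA, a process called RNA-directed DNA methylation. CHH methylation has to be set again after every round of replication, so it is often used as a mark of this process, although another methyltransferase, CMT2, maintains it in long transposons without Pol IV. The DeCL domain is named for its likeness to a protein of chloroplast and leaf development and is found near the C terminus of NRPD1.

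The 8 largest gains that met the rule for named windows are shown first, because they hold the clearest examples of DNA that was nearly unmethylated in nrpd1-3 and strongly methylated in nrpd1dDeCL. The sequences are of the plus strand of TAIR10.1, with the CHH cytosines of that strand in capitals. Lower-case c is a cytosine followed by G directly or after 1 base, and CHH cytosines of the minus strand are not marked.
NLA, chr1:634201-634500, midpoint 794 bp before the gene start: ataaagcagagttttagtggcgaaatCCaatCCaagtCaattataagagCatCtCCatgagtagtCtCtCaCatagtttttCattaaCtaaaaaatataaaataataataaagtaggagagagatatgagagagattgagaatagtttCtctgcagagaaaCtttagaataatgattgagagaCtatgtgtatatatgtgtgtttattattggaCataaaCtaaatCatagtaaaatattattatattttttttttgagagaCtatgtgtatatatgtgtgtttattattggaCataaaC
NRT2.5, chr1:4410901-4411200, intergenic, 5265 bp from the gene: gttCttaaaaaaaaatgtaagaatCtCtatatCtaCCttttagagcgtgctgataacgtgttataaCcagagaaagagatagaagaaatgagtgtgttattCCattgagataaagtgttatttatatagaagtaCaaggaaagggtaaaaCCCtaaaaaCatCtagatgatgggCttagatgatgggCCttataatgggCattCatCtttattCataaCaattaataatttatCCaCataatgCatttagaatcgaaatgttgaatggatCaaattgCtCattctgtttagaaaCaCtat
SGP2, chr3:7644001-7644300, midpoint 115 bp before the gene start: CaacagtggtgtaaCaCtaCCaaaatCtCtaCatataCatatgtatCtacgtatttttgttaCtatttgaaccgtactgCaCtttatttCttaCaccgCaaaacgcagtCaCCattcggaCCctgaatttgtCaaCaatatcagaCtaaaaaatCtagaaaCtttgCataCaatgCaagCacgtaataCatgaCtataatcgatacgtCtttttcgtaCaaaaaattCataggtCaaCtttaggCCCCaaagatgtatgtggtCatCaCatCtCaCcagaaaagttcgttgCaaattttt
AT1G18910, chr1:6538201-6538500, midpoint 205 bp before the gene start: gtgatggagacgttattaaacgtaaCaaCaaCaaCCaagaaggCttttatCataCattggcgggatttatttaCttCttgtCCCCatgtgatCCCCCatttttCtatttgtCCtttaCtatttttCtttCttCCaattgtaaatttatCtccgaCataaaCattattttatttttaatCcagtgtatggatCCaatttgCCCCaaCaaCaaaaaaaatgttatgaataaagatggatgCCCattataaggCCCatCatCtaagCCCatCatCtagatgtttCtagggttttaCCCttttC
AT1G58150, chr1:21529501-21529800, midpoint 453 bp before the gene start: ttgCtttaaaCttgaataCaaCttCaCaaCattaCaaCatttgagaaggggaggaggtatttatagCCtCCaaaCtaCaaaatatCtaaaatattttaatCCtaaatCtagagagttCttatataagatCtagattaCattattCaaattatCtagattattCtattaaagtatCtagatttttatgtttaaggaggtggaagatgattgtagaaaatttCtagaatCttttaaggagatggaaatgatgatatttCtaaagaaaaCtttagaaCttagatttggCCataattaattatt
CLSY1, chr3:14762101-14762400, intergenic, 1621 bp from the gene: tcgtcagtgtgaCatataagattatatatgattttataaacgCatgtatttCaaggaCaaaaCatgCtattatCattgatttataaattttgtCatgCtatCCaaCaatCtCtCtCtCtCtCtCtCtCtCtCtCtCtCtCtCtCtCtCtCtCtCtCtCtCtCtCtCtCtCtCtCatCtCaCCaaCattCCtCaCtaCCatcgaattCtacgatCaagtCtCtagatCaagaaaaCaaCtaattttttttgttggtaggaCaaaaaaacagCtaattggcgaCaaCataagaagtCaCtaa
UBP9, chr4:6529501-6529800, intergenic, 1320 bp from the gene: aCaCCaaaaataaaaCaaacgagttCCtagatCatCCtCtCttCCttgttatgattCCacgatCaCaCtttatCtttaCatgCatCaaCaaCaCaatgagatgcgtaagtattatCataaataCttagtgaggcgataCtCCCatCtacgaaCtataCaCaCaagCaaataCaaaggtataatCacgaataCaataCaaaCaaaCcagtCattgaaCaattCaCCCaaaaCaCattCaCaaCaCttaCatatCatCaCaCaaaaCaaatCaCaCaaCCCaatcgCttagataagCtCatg
AT3G28193, chr3:10514101-10514400, midpoint 384 bp past the gene end: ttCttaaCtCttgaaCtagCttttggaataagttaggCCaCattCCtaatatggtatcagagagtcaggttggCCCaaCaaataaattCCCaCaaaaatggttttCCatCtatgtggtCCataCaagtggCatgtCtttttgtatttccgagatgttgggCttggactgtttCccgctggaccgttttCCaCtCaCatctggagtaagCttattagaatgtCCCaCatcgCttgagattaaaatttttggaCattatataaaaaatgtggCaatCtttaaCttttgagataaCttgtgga

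The windows hold between 24 and 70 CHH cytosines on the plus strand and between 20 and 49 on the minus strand. Their share of G and C ranged from 26.0 to 38.0%. None of the 8 midpoints lay inside an annotated gene, and 1 of the 8, near CLSY1, was in pericentromeric heterochromatin.

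The window before NLA, which encodes a ubiquitin E3 ligase with RING and SPX domains, had the largest gain among these. Its level was 0.24 and 0.17% in the 2 nrpd1-3 libraries and 56.3 and 64.8% in the 2 nrpd1dDeCL libraries. In full-length NRPD1 it was 70.6 and 76.0%. Both nrpd1dDeCL libraries were therefore far above nrpd1-3 and below both full-length libraries. The window upstream of SGP2, a small GTP-binding protein of the Ras-related family, stood at 0.00 and 3.08% in nrpd1-3, at 62.1 and 45.7% in nrpd1dDeCL and at 78.8 and 69.0% in full-length NRPD1. The 2 nrpd1dDeCL libraries differed by more here than at NLA, and neither reached the full-length libraries. Too few cytosines of the SGP2 window were present in all 4 libraries for a comparison on those alone.

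Near NRT2.5, a high-affinity nitrate transporter, the level was 7.47 and 8.29% in nrpd1-3 and 64.2 and 61.3% in nrpd1dDeCL. The full-length values of 67.04 and 62.5% overlapped those of nrpd1dDeCL. The window near UBP9, a ubiquitin-specific protease, went from 5.43 and 2.68% to 54.3 and 51.5%, with 59.2 and 53.0% in full-length NRPD1. Here too the ranges of the 2 transgenic groups met. At UBP9 only 20 cytosines were read in each nrpd1-3 library, against 88 and 90 in nrpd1dDeCL. On the cytosines present in all 4 libraries the gain of this window was 37.0 points in place of 48.7. CLSY1, annotated as CHR38, is a chromatin remodeling protein that acts with Pol IV. In the window near it, nrpd1-3 had 7.24 and 4.41%, nrpd1dDeCL 54.4 and 55.3%, and full-length NRPD1 50.9 and 47.1%. Only 20 and 22 cytosines were read in nrpd1-3 here, against 63 and 65 in nrpd1dDeCL, and on the cytosines present in all 4 libraries the gain was 23.8 points in place of 48.8. This was the only one of the 8 in which both nrpd1dDeCL libraries were above both full-length libraries.

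The window before AT1G18910, annotated as a zinc ion binding protein, had 4.26 and 6.14% in nrpd1-3, 61.9 and 51.3% in nrpd1dDeCL and 66.5 and 69.2% in full-length NRPD1. The window before AT1G58150 had 4.91 and 3.85%, then 55.7 and 51.3%, and 69.4 and 69.0% in the same order. Past the end of AT3G28193, an uncharacterized protein, the values were 2.28 and 3.13%, 46.3 and 52.2%, and 59.0 and 63.7%. In these 3 windows both nrpd1dDeCL libraries lay between nrpd1-3 and full-length NRPD1. Over the 37 named windows and the 5 others set beside them, each of the 4 libraries had between 110 and 3782 reads, and the 95% Wilson interval of a level spanned 0.455 to 7.13 points on either side. These intervals cover counting error only.

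**Figure D1:**
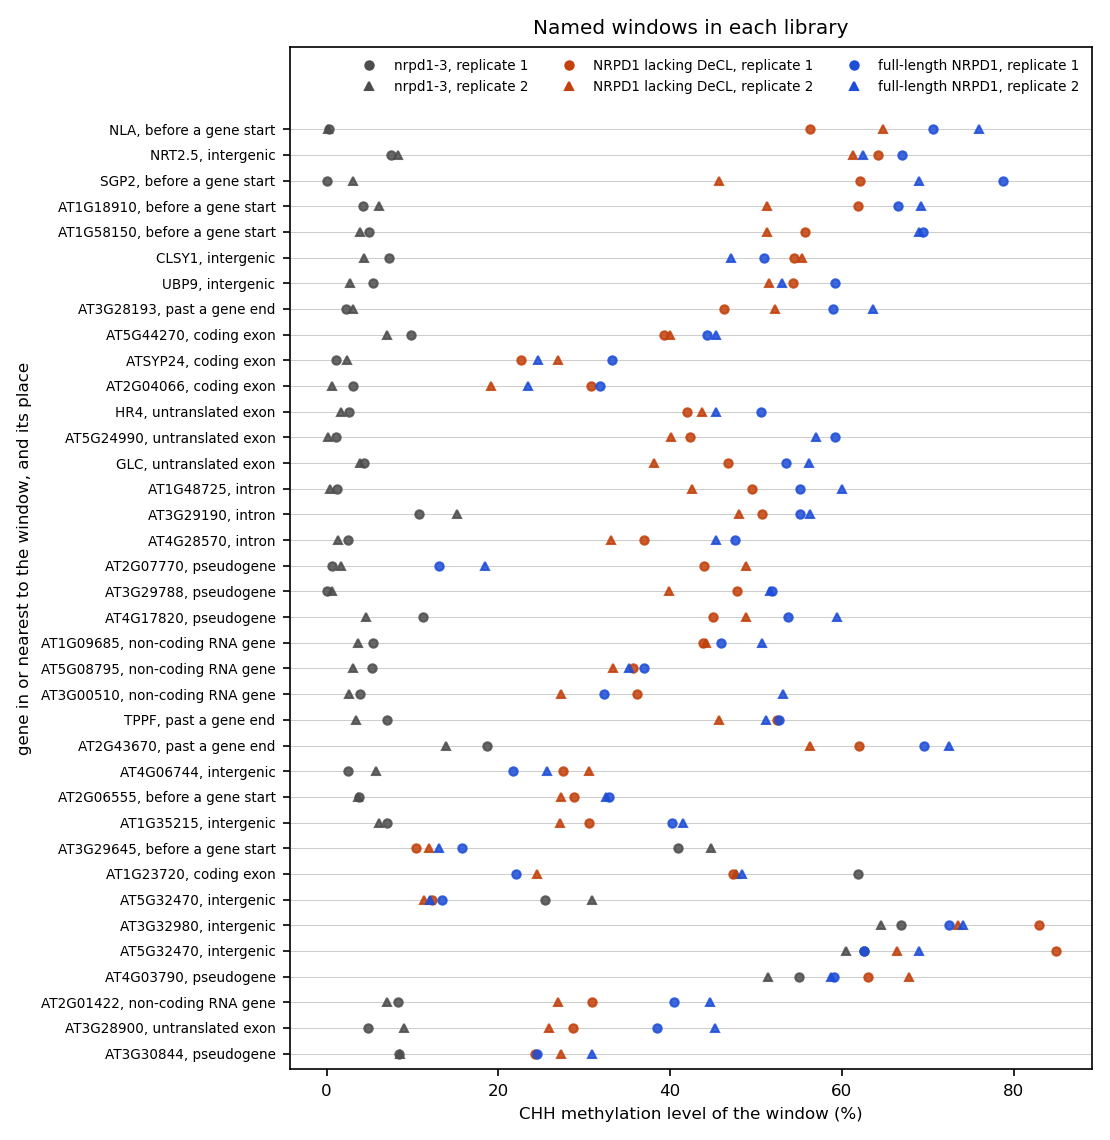
CHH methylation level (%) of the 37 windows chosen by the naming rule, 1 row per window with the gene in or nearest to it, in each nrpd1-3, nrpd1dDeCL and full-length library (circles replicate 1, triangles replicate 2). In all rows but the 3 losses, from AT3G29645 to the upper AT5G32470 row, the nrpd1dDeCL points lie to the right of the nrpd1-3 points, and at CLSY1, AT2G07770, AT4G06744 and AT4G03790 they also lie to the right of the full-length points.

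The 6 libraries listed between 12654903 and 13819039 CHH cytosines with 5 or more reads each, at a mean of 15.2 to 16.3 reads. One library stands apart: nrpd1-3 replicate 1 had 1.70% methylation in windows of coding exons, against 1.12 to 1.33% in the other 5 libraries, and scattered windows of high methylation that replicate 2 lacked. It therefore enters every comparison below with its own value, and only some of the results that rest on it are also given without it.

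Of the windows tested, 1.48% were called gained and 0.00911% were called lost. Both nrpd1dDeCL libraries were above both nrpd1-3 libraries in 4208 of the 4212 gained windows (99.91%), beside 17.8% of all tested windows. The windows were called on these same libraries, so this count follows largely from the choice and is no separate support. For the lost windows the groups were separate in 17 of 26, beside 17.3% of all tested windows with both nrpd1dDeCL libraries below. Windows with a difference of any size at an adjusted p of 0.01 or less numbered 14788 higher and 14862 lower in nrpd1dDeCL. These 2 counts were not repeated without nrpd1-3 replicate 1, and small differences varied with the replicate. Windows at 0 to 0.5% in nrpd1-3 replicate 2 had a mean difference of -0.36 points in replicate 1. Those at 0 to 0.5% in nrpd1-3 replicate 1 had 0.15 points in replicate 2. In the gained windows, 496 had a difference between 10 and 11 points, and 568 windows just outside the limit had 9 to 10 points.

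The logistic test counts reads as independent within a group, and with 2 libraries per group it takes little account of the spread between them. Limma on log2 ratios of methylated to unmethylated reads called 0 gained and 0 lost windows at an adjusted p of 0.01 (smallest adjusted p = 0.306), while 3991 windows were at least 10 points higher and 7 lower at an unadjusted p under 0.05. With a mean-variance trend, an alternative chosen after seeing the data, limma called 2950 gained and 5 lost windows, of which 2948 gains were among the 4212. The edgeR quasi-likelihood test, also added later, called 376 gained and 0 lost, with 3978 higher and 14 lower at an unadjusted p under 0.05. The count of gained windows therefore depends on how the spread between libraries is estimated.

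A measurement free of the choice of windows was had by calling windows on 1 replicate and reading the other. Windows called gained on replicate 1 numbered 4364. In replicate 2, which had no part in choosing them, their level was 6.64% in nrpd1-3 and 23.4% in nrpd1dDeCL, and 98.5% were higher in nrpd1dDeCL. The 4237 windows called on replicate 2 stood at 7.01 and 23.9% in replicate 1, and 98.7% were higher. A difference of at least 10 points was met again in 73.9 and 75.5% of them. Losses did not recur in this way: of 430 windows called lost on replicate 1, 36.3% were lower in replicate 2, and of 43 called on replicate 2, 48.8% were lower in replicate 1. The median difference was 0 in both sets, and windows without a difference counted as not lower. A difference of at least 10 points downwards was met again in 1.63 and 16.3%. No share of all tested windows higher or lower in a single replicate stands beside these shares.

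The gained windows as a whole had 6.24 and 6.00% methylation in nrpd1-3, 24.7 and 24.3% in nrpd1dDeCL, and 30.4 and 30.2% in full-length NRPD1. The mean difference of 18.4 points between nrpd1dDeCL and nrpd1-3 describes windows that were chosen for it and is given with no test. The median gain was 16.2 points and the highest 60.7. Gains of 20 points or more numbered 1381, of 30 or more 451 and of 40 or more 105. The libraries of nrpd1-3 differed from each other by a median of 1.22 points in these windows and those of nrpd1dDeCL by 3.49 points, and the 90th percentiles of these differences were 4.24 and 9.87 points. More of the reads also fell in these windows in nrpd1dDeCL, with 1.48 and 1.39% of all reads at tested windows against 0.831 and 0.795% in nrpd1-3 and 1.68 and 1.59% in full-length NRPD1. The part of this in the levels was not tested.

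Over all tested windows the level was 7.01 and 6.22% in nrpd1-3, 7.20 and 6.81% in nrpd1dDeCL, and 7.33 and 7.01% in full-length NRPD1. Nrpd1dDeCL and nrpd1-3 overlapped, with a difference of 0.39 points (two-sided exact permutation test over libraries, p = 0.667, n = 2 per group, smallest possible p = 0.33). Without nrpd1-3 replicate 2 the difference was -0.00270 points, so its sign rested on that library. The windows that were not called had 7.01 and 6.22% in nrpd1-3 and 6.94 and 6.56% in nrpd1dDeCL.

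Most gained windows started from little methylation, though from more than the typical tested window. Over all tested windows the median level in nrpd1-3 was 0.539%. In gained windows the median was 2.89%, and in 2894 of them the level was under 5%. It was under 1% in 870, and 127 had no methylated read in either nrpd1-3 library. At the other end, 470 windows had 10% or more in nrpd1-3 and 66 had 20% or more. So that the binning could not create a difference, windows were binned by their nrpd1-3 level in 1 replicate and measured in the other. Binned on replicate 2, the windows at 2 to 5% stood at 3.73% in nrpd1-3 replicate 1 and 7.79% in nrpd1dDeCL replicate 1, and 13.8% of them were at least 10 points higher. For windows at 0 to 0.5% this share was 0.374%, and for those at 10 to 20% it was 1.69%. Binned on replicate 1, it was highest, at 4.89%, in the windows at 5 to 10%. In both directions the share was lowest in the windows with least methylation and highest between 2 and 10%.

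The 3 gained windows with the highest start had gains of 11.02 to 12.9 points. A pseudogene window in AT4G03790, chr4:1690501-1690800, had 55.0 and 51.4% in nrpd1-3, 63.0 and 67.9% in nrpd1dDeCL and 59.1 and 58.7% in full-length NRPD1. The windows at chr3:13520401-13520700 and chr5:12145201-12145500, both pericentromeric and intergenic, rose from 66.9 and 64.6% to 83.0 and 73.5% and from 62.6 and 60.5% to 84.9 and 66.4%. In the last of these the 2 nrpd1dDeCL libraries differed by more than replicate 2 differed from nrpd1-3. Without nrpd1dDeCL replicate 1 the gains of the chr3 and chr5 windows were 7.99 and 5.02 points and neither was called. The chr3 window was also not called without nrpd1-3 replicate 2, at 9.66 points, or on shared cytosines, at 7.68. Nearly all CHH cytosines of these windows lie on the minus strand, with 105 of 109 in the chr4 window, 115 of 116 in the chr3 window and 106 of 109 in the chr5 window.

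Gained windows were mostly outside genes. By the annotation at the window midpoint, 2083 were intergenic and over 1000 bp from a protein-coding gene, 979 were within 1000 bp before a gene start and 505 within 1000 bp past a gene end. Together these classes held 84.7% of the gained windows, while they held 12.4, 7.57 and 3.62% of the tested ones. Of the tested windows in each class, 5.87, 4.53 and 4.89% were gained. In coding exons it was 0.0771%, with 81 windows, in introns 0.346% with 169, in untranslated exons 0.398% with 111, in pseudogenes 0.662% with 214 and in non-coding RNA genes 1.85% with 70.

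The same classes stood apart when all their tested windows were measured, called or not. Within 1000 bp before gene starts the level was 3.60 and 3.09% in nrpd1-3, 5.72 and 5.40% in nrpd1dDeCL and 7.29 and 7.01% in full-length NRPD1. Past gene ends it was 4.73 and 4.14%, 6.60 and 6.25%, and 7.91 and 7.65%. In distal intergenic windows it was 10.4 and 9.78%, 12.0 and 11.7%, and 12.6 and 12.4%. In each of these 3 classes both nrpd1dDeCL libraries were above both nrpd1-3 libraries (exact permutation test, p = 0.33 each, the smallest that 2 against 2 allow). Coding exons had 1.70 and 1.12% in nrpd1-3 and 1.32 and 1.22% in nrpd1dDeCL, introns 1.97 and 1.37% and 1.73 and 1.59%, and pseudogenes 14.3 and 13.7% and 14.1 and 13.8%, so that the groups overlapped in all of them.

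**Figure D2:**
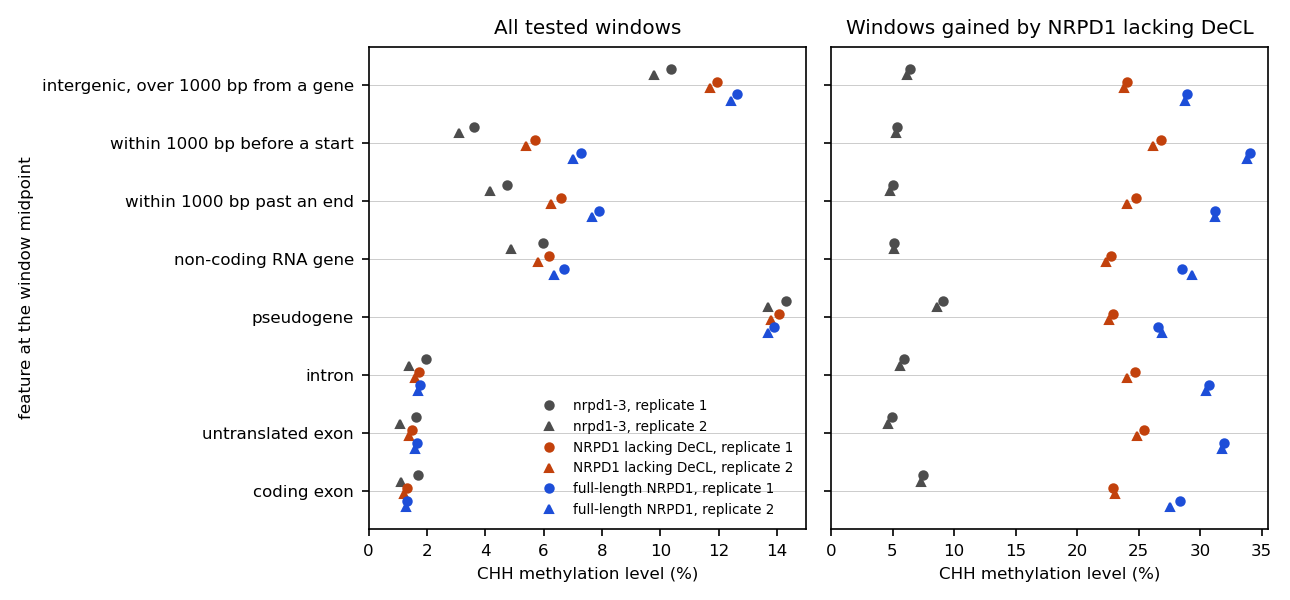
CHH methylation level (%) of each library (circles replicate 1, triangles replicate 2) by the feature at the window midpoint, over all tested windows (left) and over gained windows (right). In the left panel the groups are separate in the 3 classes outside genes, for example 3.60 and 3.09% against 5.72 and 5.40% before gene starts, and they overlap in exons, introns and pseudogenes; in the right panel every class rises because its windows were chosen for that.

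Around the starts of all protein-coding genes, with no choice of windows, the largest difference lay in the 100 bp that begin 400 bp before the start. There the level was 2.77 and 2.18% in nrpd1-3, 4.37 and 3.99% in nrpd1dDeCL and 5.69 and 5.33% in full-length NRPD1. The difference between the means of nrpd1dDeCL and nrpd1-3 was 1.71 points in that bin, 0.95 points in the bin that begins 1000 bp before the start and 0.54 points in that at 2000 bp. From 200 bp inside the gene it was between -0.03 and 0.02 points, with overlapping libraries. The nrpd1-3 libraries showed no such peak.

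Most runs were short. Of 3162 runs of adjoining gained windows, 2416 were 1 window long, 548 were 2 windows and 198 were 3 or more. Around single windows the level of nrpd1dDeCL fell from 24.7 and 24.3% at the 100 bp past the centre to 13.2 and 12.7% at 200 to 299 bp, where nrpd1-3 had 7.47 and 7.00%. Beyond that, nrpd1dDeCL stayed above nrpd1-3 by 4.25 points at 400 to 499 bp and by 1.93 points at 1800 to 1899 bp. The nrpd1-3 libraries dipped at the centre, to 5.53 and 5.45%. The choice of gained windows with no gained neighbour fixes part of both the peak and its fall, so the profile is a description.

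**Figure D3:**
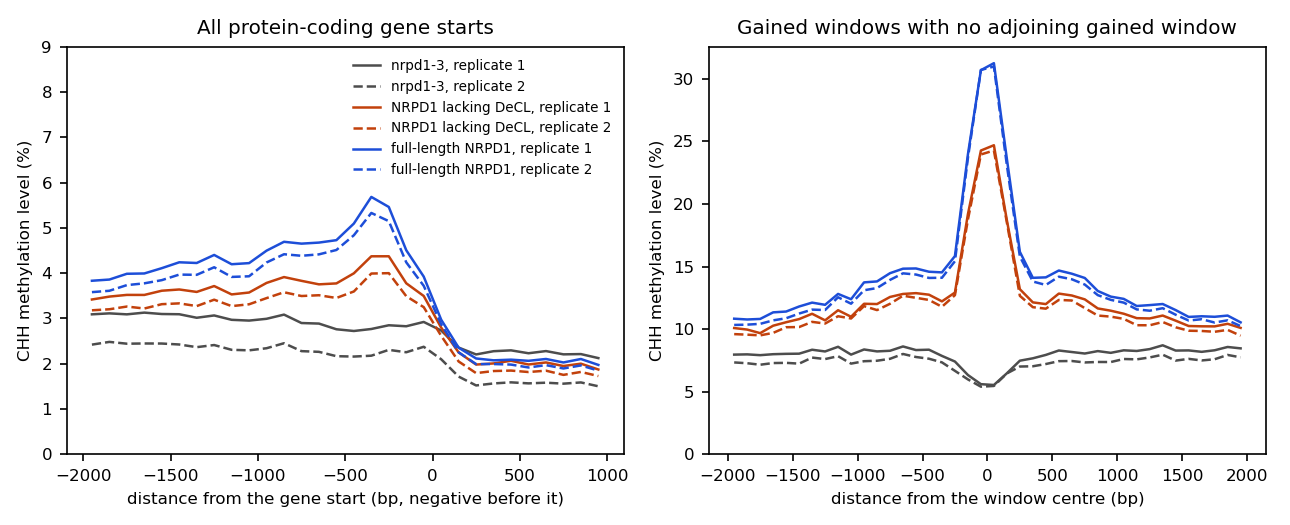
CHH methylation level (%) of each library in 100 bp bins around all protein-coding gene starts (left) and around the centres of gained windows without a gained neighbour (right), with solid lines for replicate 1 and dashed lines for replicate 2. Before gene starts nrpd1dDeCL peaks at 4.37 and 3.99% between the flat nrpd1-3 lines and the full-length peak of 5.69 and 5.33%; the right panel shows windows chosen for their gain and for neighbours that were not called, which favours the fall to 13.2 and 12.7% at 200 to 299 bp.

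The longest run covered 11 windows, chr4:4065301-4068600, in pericentromeric heterochromatin near AT4G06744, which encodes a leucine-rich repeat protein. Its largest-gain window, chr4:4068301-4068600, rose from 2.50 and 5.70% to 27.5 and 30.5%, with 21.7 and 25.7% in full-length NRPD1. A run of 10 windows lay before AT2G06555, chr2:2604001-2607000, where the level of the leading window went from 3.82 and 3.65% to 28.8 and 27.3% (full-length NRPD1 32.9 and 32.5%). In a run of 7 windows near AT1G35215, chr1:12906001-12908100, the leading window went from 7.07 and 6.13% to 30.6 and 27.1% (full-length NRPD1 40.2 and 41.5%). All 3 runs were pericentromeric, and their leading windows ranged from 27.1 to 30.6% in nrpd1dDeCL and from 21.7 to 41.5% in full-length NRPD1.

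Pericentromeric heterochromatin held 43.9% of the gained windows and 24.97% of the tested ones. The term covers the gene-poor and transposon-rich DNA around the centromeres and, by the limits of the study, the heterochromatic knob of chromosome 4. There 2.59% of tested windows were gained, and in the chromosome arms 1.10%. The gained windows of the arms had a larger mean gain, from 6.42 and 6.11% to 26.2 and 25.8% (full-length NRPD1 32.9 and 32.6%), while those of the pericentromere went from 6.02 and 5.89% to 22.8 and 22.5% (full-length NRPD1 27.3 and 27.3%). Among gains of at least 20 points the pericentromeric share was 31.3%. The chromosomes differed little, with 1.34 to 1.63% of tested windows gained.

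The share of gained windows varied with the distance to the nearest protein-coding gene in both compartments. In the arms it was 0.147% inside genes, 1.80% within 250 bp, 6.39% at 1001 to 2000 bp and 3.07% beyond 5000 bp. In the pericentromere it was 0.768% inside genes, 8.46% at 251 to 500 bp and 1.44% beyond 5000 bp. This last class was the largest of the pericentromere, with 33725 of its 71235 windows, and 485 of them were gained.

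Gained windows were poor in G and C, with a median of 31.7% against 38.3% in all tested windows. Outside genes and pseudogenes all tested windows had a median of 33.7% and gained ones 31.0%. There the share gained was 23.8% in windows under 25% G and C, 8.65% at 25 to 30%, 4.78% at 30 to 35%, 3.39% at 35 to 40% and 2.45% at 40% or more. Over all windows outside genes under 25% G and C, the level was 2.42 and 2.33% in nrpd1-3, 11.3 and 11.3% in nrpd1dDeCL and 16.1 and 15.9% in full-length NRPD1. These windows had 17.5 to 19.5 usable cytosines per library on average, and windows of 40% or more had 63.5 to 65.7, so their levels were less precise, and the part of precision in this order was not tested.

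**Figure D4:**
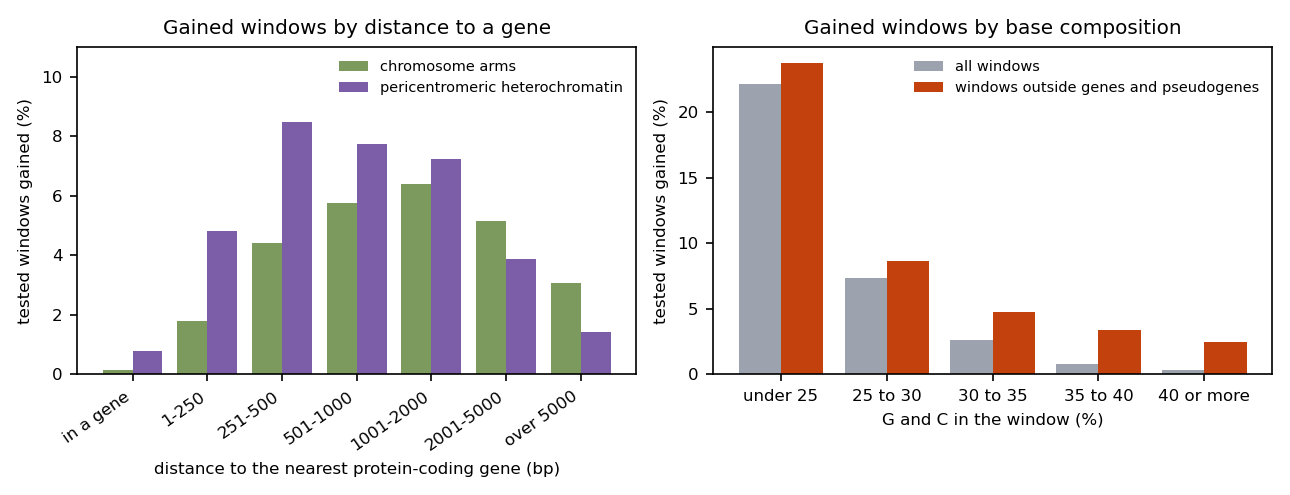
Share of tested windows called gained (%), by distance to the nearest protein-coding gene in chromosome arms and pericentromeric heterochromatin (left) and by the share of G and C for all windows and for windows outside genes and pseudogenes (right); bars are counts over all 4 libraries and have no replicate error. In the arms the bars rise to 6.39% at 1001 to 2000 bp, in the pericentromere to 8.46% at 251 to 500 bp, and on the right they fall from 23.8 to 2.45% outside genes.

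In gained windows, which were chosen for being higher, all 9 CHH sequence contexts were higher in nrpd1dDeCL. CTA cytosines had 11.5 and 11.4% in nrpd1-3 and 35.8 and 35.1% in nrpd1dDeCL, with 42.5 and 42.0% in full-length NRPD1. CAA cytosines went from 11.5 and 11.1% to 33.3 and 33.0% (full-length NRPD1 39.3 and 39.2%). The lowest were CCT, from 2.33 and 2.24% to 16.5 and 16.1% (full-length NRPD1 21.8 and 21.6%), and CCC, from 2.58 and 2.54% to 16.8 and 16.6%. The gain in points was thus largest at CTA, 24.0, and smallest at CCT, 14.1. CAA and CTA were also the most methylated contexts over all tested windows, at 15.1 to 16.8% in the 4 libraries. Over all tested windows the groups overlapped in 8 of the 9 contexts, for example at CAA with 16.3 and 15.1% in nrpd1-3 and 16.6 and 15.9% in nrpd1dDeCL, and were separate at CCC, with 1.16 and 0.77% and 1.32 and 1.24%.

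In gained windows, which were called on the reads of both strands together, the gain was alike on both strands. The plus strand had 6.13 and 5.91% in nrpd1-3 and 24.7 and 24.3% in nrpd1dDeCL, and the minus strand 6.34 and 6.10% and 24.7 and 24.3%. Of 1867 gained windows with at least 5 cytosines per strand in each library, 1850 were higher on both strands and 1232 by at least 10 points on both. In 106 windows 1 strand was at least 10 points higher and the other under 5. Because of the call on both strands together, these counts follow in part from the choice of windows. Over all tested windows the groups overlapped on each strand. The plus strand had 7.08 and 6.30% in nrpd1-3 and 7.28 and 6.89% in nrpd1dDeCL, and the minus strand 6.93 and 6.14% and 7.12 and 6.73%.

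At single cytosines with 10 or more reads in gained windows, 58.9 and 60.5% had no methylated read in nrpd1-3, 13.4 and 13.7% in nrpd1dDeCL and 9.88 and 10.3% in full-length NRPD1. Cytosines at 50% or more made up 1.70 and 1.73% in nrpd1-3, 15.5 and 15.03% in nrpd1dDeCL and 23.5 and 23.3% in full-length NRPD1. These shares pool the cytosines of all gained windows, which were chosen for being higher, so the contrast follows in part from the choice. The number of cytosines with 10 reads was also higher in nrpd1dDeCL, 106009 and 112366 against 68407 and 69053, so the sets compared are not the same cytosines. Over all tested windows, 66.7 and 72.1% had no methylated read in nrpd1-3 and 67.5 and 69.2% in nrpd1dDeCL, so the groups overlapped. Cytosines at 50% or more made up 2.67 and 2.37% there in nrpd1-3 and 3.00 and 2.69% in nrpd1dDeCL.

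Inside coding exons, the largest gain was in AT5G44270, which encodes a protein of the TPX2 family, at chr5:17833501-17833800. Its level was 9.86 and 7.00% in nrpd1-3, 39.3 and 39.98% in nrpd1dDeCL and 44.3 and 45.3% in full-length NRPD1. ATSYP24, a syntaxin of the SYP2 family, had 1.06 and 2.44% in chr1:11644501-11644800, then 22.6 and 26.9%, and 33.3 and 24.6% with full-length NRPD1. AT2G04066, a MATE efflux protein, had 3.11 and 0.62% in chr2:1353301-1353600, 30.7 and 19.1%, and 31.9 and 23.5%. The 2 transgenic groups overlapped at ATSYP24 and AT2G04066 and did not at AT5G44270.

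In untranslated exons the leading genes were HR4, AT5G24990 and GLC. HR4, a homolog of the mildew resistance protein RPW8, had 2.66 and 1.68% in chr3:18734101-18734400, 42.0 and 43.8% in nrpd1dDeCL and 50.5 and 45.3% in full-length NRPD1. AT5G24990, a DUF1336 protein, had 1.08 and 0.20% in chr5:8611501-8611800, then 42.3 and 40.1%, and 59.2 and 57.0%. GLC, annotated in the HXXXD acyl-transferase family, had 4.40 and 3.89% in chr1:24317401-24317700, then 46.8 and 38.1%, and 53.5 and 56.2%. All 3 were below full-length NRPD1 in both libraries.

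Among introns, that of AT1G48725, chr1:18019501-18019800, went from 1.18 and 0.41% to 49.5 and 42.5% (full-length NRPD1 55.1 and 60.0%). The intron of AT3G29190, a terpenoid cyclase family gene, chr3:11162701-11163000, went from 10.8 and 15.2% to 50.7 and 48.0% (55.2 and 56.3%). The intron of AT4G28570, a long-chain fatty alcohol dehydrogenase, chr4:14122201-14122500, went from 2.54 and 1.35% to 36.9 and 33.1% (47.6 and 45.3%). In all 3 introns both nrpd1dDeCL libraries were below both full-length libraries.

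Past gene ends, the next gains after AT3G28193 were at TPPF, a trehalose-phosphate phosphatase, and AT2G43670, a carbohydrate-binding X8 domain protein. The window 707 bp past TPPF, chr4:7364401-7364700, had 6.99 and 3.45%, then 52.4 and 45.7%, and 52.7 and 51.2% with full-length NRPD1, and it belonged to a run of 4 gained windows. On shared cytosines its gain was 26.6 points in place of 43.7. The window past AT2G43670, chr2:18106801-18107100, was already at 18.7 and 13.9% in nrpd1-3 and reached 62.0 and 56.3%, with 69.6 and 72.5% in full-length NRPD1. It overlaps the amplified part of the transposon AT2TE82000, which the study examined by PCR.

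In non-coding RNA genes, AT1G09685 went from 5.43 and 3.70% to 43.8 and 44.2% (full-length NRPD1 45.9 and 50.7%), AT5G08795 from 5.31 and 3.03% to 35.7 and 33.3% (37.0 and 35.2%), and AT3G00510 from 3.95 and 2.64% to 36.1 and 27.3% (32.2 and 53.1%). Their windows were chr1:21615301-21615600, chr5:23431201-23431500 and chr3:10927501-10927800. At AT3G00510 the gain of 28.4 points was 16.1 on shared cytosines. Of the 70 gained windows in this class, 28 were in lncRNA genes, 30 in misc_RNA genes, 8 in other ncRNA genes and 4 in miRNA genes. Among pseudogenes, AT3G29788 went from 0.00 and 0.60% to 47.8 and 39.9% (51.8 and 51.6%) in chr3:11602501-11602800, and AT4G17820 from 11.2 and 4.62% to 45.1 and 48.8% (53.8 and 59.5%) in chr4:9909001-9909300.

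One pseudogene differed from this order. In AT2G07770, chr2:3587101-3587400, nrpd1-3 had 0.61 and 1.63%, nrpd1dDeCL 44.0 and 48.8%, and full-length NRPD1 13.1 and 18.4%. Its sequence is shown because it was the only named gain in which nrpd1dDeCL exceeded full-length NRPD1 by more than 20 points, with the same marking as above.
AT2G07770: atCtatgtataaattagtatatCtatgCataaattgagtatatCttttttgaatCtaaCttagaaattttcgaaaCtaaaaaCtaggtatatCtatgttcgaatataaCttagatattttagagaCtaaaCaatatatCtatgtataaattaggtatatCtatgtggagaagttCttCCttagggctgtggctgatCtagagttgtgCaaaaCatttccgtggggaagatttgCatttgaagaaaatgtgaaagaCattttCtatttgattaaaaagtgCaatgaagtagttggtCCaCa

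Full-length NRPD1 and nrpd1dDeCL could be set side by side in 4171 gained windows with 10 cytosines in all 6 libraries. Both nrpd1dDeCL libraries were below both full-length libraries in 2537 of them (60.8%, against 17.7% of all windows with 10 cytosines in the 6 libraries), above both in 181 (4.34%, against 14.9%), and overlapping in 1453. In 19 windows neither full-length library was more than 5 points above nrpd1-3. The median level of these windows was 21.5 and 21.3% in nrpd1dDeCL and 27.6 and 27.2% in full-length NRPD1. Both comparisons use the same nrpd1dDeCL libraries, and the values are given as a description.

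The 26 losses were less regular than the gains. In 16 of them 1 nrpd1-3 library was under 5 points above the higher nrpd1dDeCL library, and in 12 of these 16 the high library was nrpd1-3 replicate 1. When each nrpd1-3 library had to be at least 5 points above both nrpd1dDeCL libraries, a limit added after seeing the data, 10 losses were left. The largest difference, at AT3G00170, rested on 1 library, with 0.00 and 52.0% in nrpd1-3 and 0.00 and 0.36% in nrpd1dDeCL. Without nrpd1-3 replicate 2 the test called 446 losses, and without replicate 1 it called 40.

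The named loss of largest size lay 860 bp before AT3G29645, an uncharacterized protein, at chr3:11481901-11482200. Its level was 40.9 and 44.8% in nrpd1-3, 10.4 and 12.0% in nrpd1dDeCL and 15.7 and 13.0% in full-length NRPD1. On the cytosines present in all 4 libraries the difference shrank from -31.1 to -7.23 points and the call was lost (logistic test, adjusted p = 0.14). The adjoining window on the side of the gene, chr3:11481601-11481900, moved the other way, from 3.36 and 5.12% to 39.5 and 39.1%, with 47.8 and 44.4% in full-length NRPD1. The windows around the loss were chosen after their values were seen. Both sequences are shown because methylation was high in nrpd1-3 in the one and in both transgenic groups in the other.
Lost window before AT3G29645: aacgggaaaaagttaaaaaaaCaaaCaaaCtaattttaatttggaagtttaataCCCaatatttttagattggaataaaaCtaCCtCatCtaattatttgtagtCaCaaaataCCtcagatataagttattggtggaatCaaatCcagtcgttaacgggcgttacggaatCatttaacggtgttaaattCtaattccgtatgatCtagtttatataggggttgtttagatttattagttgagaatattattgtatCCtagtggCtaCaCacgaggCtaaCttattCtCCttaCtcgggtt
Gained window beside it: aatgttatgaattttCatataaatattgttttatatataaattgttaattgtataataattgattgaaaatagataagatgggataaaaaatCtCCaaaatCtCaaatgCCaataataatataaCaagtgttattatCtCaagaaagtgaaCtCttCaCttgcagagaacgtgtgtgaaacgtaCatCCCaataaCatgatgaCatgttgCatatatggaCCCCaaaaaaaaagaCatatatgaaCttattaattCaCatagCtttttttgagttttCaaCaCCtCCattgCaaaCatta

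Farther into AT3G29645, the windows chr3:11481001-11481300 and chr3:11480701-11481000 went from 3.05 and 1.97% to 15.1 and 14.95% and from 5.77 and 8.07% to 19.7 and 16.6%. On the other side, chr3:11482201-11482500 had at most 1.18% in the 4 libraries. The named loss in a coding exon of AT1G23720, a proline-rich extensin-like gene, chr1:8390101-8390400, was less clear, with 61.9 and 47.7% in nrpd1-3 and 47.3 and 24.5% in nrpd1dDeCL, and 22.1 and 48.3% in full-length NRPD1. Its difference of -18.6 points was -6.59 on shared cytosines and -7.17 without nrpd1dDeCL replicate 2, both under the limit of a call. The third, chr5:12134701-12135000 in pericentromeric DNA, fell from 25.4 and 30.9% to 12.3 and 11.3% (full-length NRPD1 13.5 and 12.0%). There the difference of -16.9 points was -1.33 on shared cytosines (adjusted p = 0.64) and -0.092 with 10 reads per cytosine (adjusted p = 0.99). None of the 3 named losses was thus called when the same cytosines were compared.

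**Figure D5:**
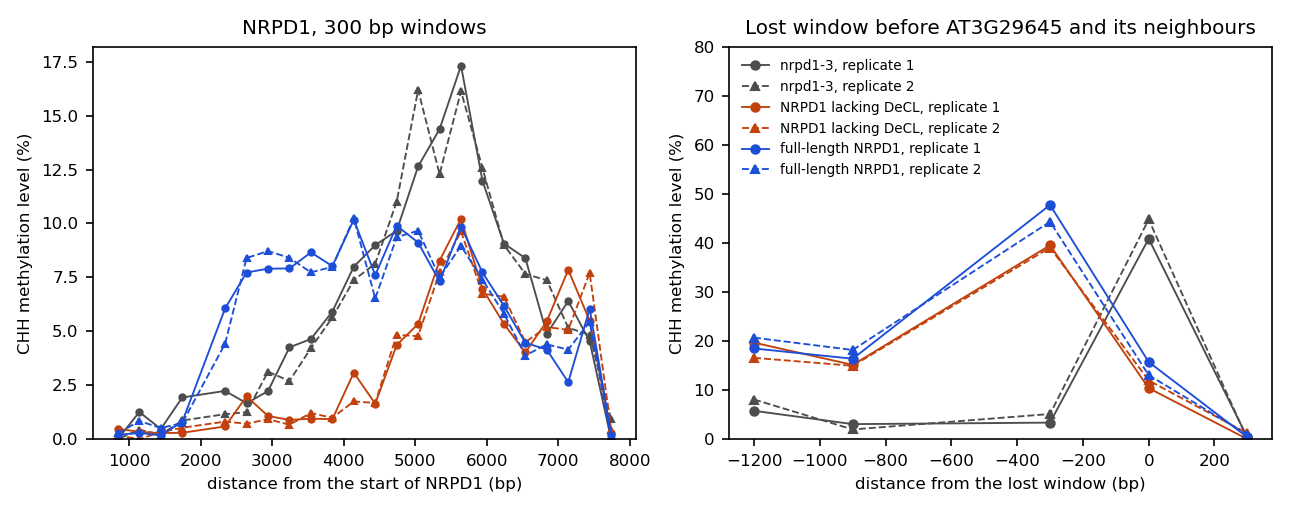
CHH methylation level (%) of 300 bp windows in each library along NRPD1 (left, distance from the gene start) and around the lost window before AT3G29645 (right, distance from that window, negative towards the gene; the window at -600 bp was not tested and is bridged by the lines). On the left nrpd1dDeCL lies below nrpd1-3 over most of the gene, and on the right the order of the groups turns between the window at -300 bp and the lost window at 0.

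NRPD1 itself, AT1G63020, checks the labels. Mean coverage of its CHH cytosines was divided by the chromosome median of each library. In the part that the construct keeps, the ratio was 1.93 and 1.8997 in nrpd1-3, 2.75 and 2.73 in nrpd1dDeCL and 3.26 and 3.08 in full-length NRPD1. In the part it lacks, the ratio was 1.63 and 1.93, 1.47 and 1.63, and 2.81 and 2.66. Nrpd1dDeCL was thus above nrpd1-3 only in the kept part, and full-length NRPD1 in both. The border was placed with the reverse primer that made the deletion, whose sequence fits the plus strand of chr1:23355834-23355869 because NRPD1 lies on the minus strand.
Primer NRPD1 d1337-R: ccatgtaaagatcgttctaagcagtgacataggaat

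Methylation of the NRPD1 gene went down rather than up. Over the kept part the level was 8.36 and 7.79% in nrpd1-3, 3.52 and 3.38% in nrpd1dDeCL and 7.19 and 6.88% in full-length NRPD1. Both nrpd1dDeCL libraries were below both nrpd1-3 libraries in 16 of 23 tested windows of the gene, beside 17.3% of all tested windows. In the logistic test 13 of the 23 fell at an adjusted p of 0.01 or less, none by 10 points, beside 5.21% of all tested windows. Reads of the transgene and of the disrupted endogenous gene cannot be told apart, so the level is an average over both.

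None of 29 genes that act in RNA-directed DNA methylation had a gained window in the gene or the 1000 bp before it, beside 1161 of 27234 protein-coding genes (4.26%). At that share a list of this length holds few such genes, so the count says nothing particular to the machinery. The highest window difference among them was before DCL3, the enzyme that cuts Pol IV products, where chr3:15753001-15753300 had 0.49 and 1.73% in nrpd1-3, 3.77 and 4.90% in nrpd1dDeCL and 18.4 and 13.1% in full-length NRPD1. NRPE1, the largest subunit of Pol V, held 2 lost windows, but the gene's level was 5.62% in nrpd1-3 replicate 1, 0.37% in replicate 2 and 0.26 and 0.38% in nrpd1dDeCL. Those losses rested on nrpd1-3 replicate 1. Among 20 other genes of DNA methylation and demethylation, and among 13 housekeeping genes, there was no gained window either.

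Of 16 loci known to be controlled by DNA methylation, 1 had a gained window (6.25%), near the 4.26% of all protein-coding genes. FWA, a homeodomain transcription factor that delays flowering when it is unmethylated, carries tandem repeats around its transcription start. Its intron window chr4:13038301-13038600 had 0.79 and 0.00% in nrpd1-3, 11.7 and 9.09% in nrpd1dDeCL and 18.7 and 15.3% in full-length NRPD1. It had as few as 19 cytosines and 110 reads in a library and is outside the naming rule, so it was chosen after its values were seen. Its sequence is given because the locus is a classical target of this pathway.
FWA: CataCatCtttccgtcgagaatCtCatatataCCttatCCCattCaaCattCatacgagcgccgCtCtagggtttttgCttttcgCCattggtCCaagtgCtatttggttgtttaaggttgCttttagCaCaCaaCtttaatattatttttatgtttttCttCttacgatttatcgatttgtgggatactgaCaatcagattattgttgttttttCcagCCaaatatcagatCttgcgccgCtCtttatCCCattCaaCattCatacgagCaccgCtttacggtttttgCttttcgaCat

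SDC, an F-box gene silenced through repeats in its promoter, came close, with 3.26 and 6.53% in nrpd1-3, 13.5 and 14.1% in nrpd1dDeCL and 19.8 and 17.6% in full-length NRPD1 in chr2:7682101-7682400, a difference of 8.97 points. The disease resistance genes RPP7 and RMG1 had largest differences of 7.46 and 6.13 points. The other 12 loci of the list, among them the maternally expressed MEA and the paternally expressed PHE1, had no window with a difference above 5.04 points.

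By product name, 12 of 191 disease resistance genes (6.28%), 11 of 155 receptor-like kinase genes (7.10%), 30 of 646 F-box genes (4.64%) and 5 of 105 defensin genes (4.76%) held a gained window, beside the 4.26% of all protein-coding genes. Protein-coding genes of the pericentromere were at 11.8% (316 of 2673), pseudogenes at 9.51% (367 of 3860) and miRNA genes at 6.54% (20 of 306).

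Loci that the study examined one by one were also measured. They were chosen by the study for their behaviour in this material, so their count is no independent evidence. By gene, 3 of 5 had a gained window. At ERT14, AT2G01422, the leading window chr2:183901-184200 went from 8.33 and 7.00% to 30.9 and 26.9% (full-length NRPD1 40.4 and 44.6%). At ERT7, AT3G28899, chr3:10902001-10902300 went from 4.87 and 8.99% to 28.7 and 25.9% (38.5 and 45.2%). At the pseudogene AT3G30844, chr3:12603001-12603300 went from 8.46 and 8.57% to 24.3 and 27.3% (24.5 and 30.9%), where the gain of 17.4 points was 11.5 on shared cytosines. The first 2 stayed below full-length NRPD1, and AT3G30844 overlapped it.

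The transposon loci of the study were placed by their primers, with 300 bp added on each side. The primers of AT2TE07550 and AT4TE27915 fitted 17 and 29 places and those of AtSN1 fitted none, so these loci were not measured. At AT3TE63155 the level was 4.46 and 3.55% in nrpd1-3, 23.9 and 26.5% in nrpd1dDeCL and 33.5 and 45.0% in full-length NRPD1. At AT5TE47755 it was 0.60 and 0.53%, 15.9 and 15.9%, and 19.4 and 21.2%. At AT3TE47840, beside the lost window above, it was 3.58 and 3.497%, 28.0 and 29.3%, and 31.9 and 28.0%. Nrpd1dDeCL was below full-length NRPD1 in both libraries at AT3TE63155 and AT5TE47755, and the ranges overlapped at AT3TE47840.

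At AT2TE82000 the level was 12.3 and 7.69%, 38.2 and 32.1%, and 40.3 and 42.0%, and at AT3TE37570 5.60 and 0.25%, 27.1 and 26.3%, and 27.7 and 33.3%. At AT1TE75910 it was 1.64 and 1.75%, 9.26 and 8.01%, and 15.03 and 12.5%. The amplified parts of ERT9 and SDC had under 0.7% in all 6 libraries, as did TUB8, a tubulin gene used as a control, but for 1.52% in nrpd1-3 replicate 1. Outside its amplified part, ERT9 had 1.34 and 0.00% in nrpd1-3 and 4.76 and 8.74% in nrpd1dDeCL in chr5:8233801-8234100. Full-length NRPD1 had 13.0 and 15.4% there, and the difference of 5.74 points was under the limit of a call. The SDC window given above also lies outside the amplified part. The solo LTR had 0.00 and 0.00% in nrpd1-3 and 29.9 and 15.9% in nrpd1dDeCL, on 42 to 130 reads, and held no tested window.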

How the data were processed

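Whole-genome bisulfite sequencing libraries of 6 samples were deposited as CHH cytosines on the 5 nuclear chromosomes, 1 file per sample. Per the labels and the study's methods, the authors used the TruSeq DNA methylation kit, bcl2fastq 2.16.0.10, cutadapt 1.9.1, Bismark 0.16.1 with removal of duplicates, and TAIR10. methylKit 0.9.5 is also named in the submitters' processing notes. The coverage column deposited by the authors gives, for each cytosine, a whole count of reads of at least 5. The deposited percent values give the methylated and unmethylated share of those reads. Coverage times percent gave the methylated reads, which were whole to within 0.001 of a read. Cytosines below 5 reads are missing, so the cytosines differ between libraries. Unconverted cytosines count as methylated, and no conversion control was used here. All positions were cytosines in the sequence of TAIR10.1, so its gene annotation was used.

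Windows of 300 bp were fitted by logistic regression with a likelihood-ratio test and Benjamini-Hochberg adjustment over the 285292 windows tested. The study used overlapping windows, wild type as reference and another adjustment (SLIM). Pericentromeric limits were those the study gives for dense heterochromatin, with the knob of chromosome 4 included. Group was taken from the labels. Single values were compared by exact permutation tests, which cannot go below 0.33 with 2 libraries against 2. Named windows needed a call, 20 cytosines in each of the 4 libraries and separate groups. With 1 window per run, the rule took the 8 largest gains, the 3 largest per feature class, the leading windows of the 3 longest runs, the 3 largest losses, the 3 highest starts and up to 5 genes per gene list, besides NRPD1. The members, gene lists and tests were chosen with earlier results of these data known. Gene products came from the annotation.

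Alternatives covered the coverage minimum, cytosines per window, the size of a call, window placement, other tests, a block for the replicate number, shared cytosines and each library left out. The tests were first run on simulated data, in which limma without a mean-variance trend missed windows raised by known amounts. The spread between simulated libraries was set in advance, at counting error alone or a fixed amount more. The simulation therefore cannot decide which test suits the spread of these data. Analyses used Python 3.11.15, NumPy 2.4.6, pandas 2.3.3, SciPy 1.17.1, matplotlib 3.10.9, R 4.3.3, limma 3.58.1 and edgeR 4.0.16. Depth was 192342372 to 225676590 reads at cytosines per library. Methylation in other contexts and small RNAs were not used here.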

Additional observations from a re-analysis of the deposited data

Results flagged for a closer look

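Reads in gained windows made up a larger share of the library in nrpd1dDeCL than in nrpd1-3, by a ratio of 1.76, which is a signal in the coverage rather than in the methylation level. The ratio was 2.04 for gained windows at 0 to 1% in nrpd1-3 and 1.51 for those at 10% or more. In windows not called it was 0.994.

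Windows outside the test were measured too. In 11440 windows with 10 cytosines in both nrpd1dDeCL libraries but not in both nrpd1-3 libraries, the level was 1.63 and 1.03% in nrpd1-3 and 8.14 and 7.68% in nrpd1dDeCL, a difference of 6.58 points, with 13.1 and 12.4% in full-length NRPD1. Where both nrpd1-3 libraries fell short of 10 cytosines, in 2633 windows, it was 1.78 and 1.55% and 16.9 and 16.4%, a difference of 14.99 points, with 25.5 and 24.8% in full-length NRPD1. In the reverse case, 17053 windows with 10 cytosines in both nrpd1-3 libraries only, the level was 1.37 and 0.77% in nrpd1-3 and 1.21 and 1.07% in nrpd1dDeCL. These sets were chosen by coverage in 1 group, and coverage and methylation moved together in gained windows, so part of the difference is fixed by the choice and the values are a description. None of these windows were tested one by one.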

How the results depend on the processing

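The gained count of 4212 and the lost count of 26 moved to 2037 and 9 with 10 reads per cytosine, 2320 and 10 with 20 cytosines per window, 8858 and 542 at 5 points, 1381 and 4 at 20 points, and 14788 and 14862 with no minimum. The quasi-binomial F test gave 1 and 0 (3331 higher and 8 lower at an unadjusted p under 0.05 and 10 points), limma 0 and 0, also with any 1 library left out, limma on arcsine levels 0 and 0 (4070 and 10), and edgeR 376 and 0. With a trend, limma gave 2950 and 5. On shared cytosines, with 268509 windows tested, 3245 were gained, and 3089 of these were among the 4212 (73.3% of them). Losses were 53 with 5 cytosines, 44 in windows every 200 bp, 13 on shared cytosines, 17 with separate groups and 10 with 5 points between all libraries. Leaving out each library, gains ranged from 4269 to 4610 and losses from 40 to 446.

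The level difference of 18.4 points in gained windows was 17.6 with 10 reads, 17.3 with 20 cytosines, 28.0 at 20 points, 17.0 on shared cytosines, 16.8 and 16.9 across replicates, 18.7 with equal weights, 19.5 with the limma trend, 22.4 with edgeR and 18.2 to 18.7 with libraries left out. The pericentromeric share of 43.9% was 46.9, 46.6 and 31.3% under the first 3 of these, 41.6% with the limma trend, 41.0% with edgeR and 43.5 to 45.6% with libraries left out. The share outside genes of 84.7% was 80.4, 80.9 and 88.9%, and 79.0% with edgeR. Limma as planned gave no windows for these values. The genome-wide difference of 0.390 points ranged from -0.00270, without nrpd1-3 replicate 2, to 0.782, without nrpd1-3 replicate 1.

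With the replicate number as a block, the logistic test gave 4213 gained and 27 lost windows, and limma gave 0 and 0 (3783 and 7 at an unadjusted p under 0.05 and 10 points). The numbers were not taken as a pairing, since deviations of same-numbered samples correlated at 0.0108 over windows, although the genome-wide level was higher in replicate 1 in all 3 groups. Of the gains called with the block in the logistic test, 4210 were among the 4212 called without it. The named windows were not repeated with the block.

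Of the 37 named windows none turned direction. Limma kept 0 of the 37 calls and, with a trend, 33. With 10 reads 29 of 30 were kept, on shared cytosines 32 of 36 (the 3 named losses and the gain at chr3:13520401 were not), and with a library left out 35 to 37. Depth limits the windows of few cytosines most, and 2 libraries per group limit every test.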
